A study of Rattus norvegicus with 167 samples.

Results

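The cytosolic ribosomal protein genes were followed in rat spinal cord after complete transection. Members were the genes whose single symbol on the array begins with Rpl or Rps and a digit, leaving out the Rps6k kinases. The rule gave 48 of the 14218 genes that have a probe set naming only them, 33 of the large subunit (Rpl) and 15 of the small subunit (Rps), each represented by its probe set with the highest mean. Of the 48, 44 were tested after a filter on low values. Rpl28, Rpl30 and Rps4x-ps1 were above the filter in 0 arrays and Rpl39l1 in 1 array, so these 4 carry no test. The low values are those of their single-symbol probe sets. Probe sets naming Rpl28 or Rpl30 with other symbols, left out by the rule, had means of 12.96 (Rpl28) and 13.06 and 12.48 (Rpl30).

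Adult female Wistar rats had the cord cut completely at thoracic level T7/8 and 5 mm of tissue removed. The gap received a chitosan tube carrying the growth factor neurotrophin-3 (NT3 arm), an empty chitosan tube (ET arm) or no tube (lesion control, LC arm). Rostral tissue, the lesion site and caudal tissue were taken 1, 3, 10, 20, 30, 60 and 90 days after surgery, with the lesion site sampled from day 3 and its ET arm at day 3 alone, and 3 uninjured cords served as the reference, of a segment level not given in the labels. All operated groups share the transection, and the LC arm holds no chitosan and no added factor. The arrays, of Affymetrix's Rat Genome expression design, formed 56 groups, 55 of 3 arrays and 1 of 2 (rostral ET day 10). There were 21, 21 and 20 rostral arrays, 18, 18 and 3 lesion arrays and 21, 21 and 21 caudal arrays in the LC, NT3 and ET arms. The labels do not say that the replicates of a group came from separate animals, so the p-values measure the spread between these arrays.

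The cytosolic ribosome joins a small subunit, which reads the messenger RNA, to a large subunit, which forms peptide bonds and holds the exit tunnel. Their proteins are made in matching amounts, and most of their mRNAs begin with a C followed by a run of pyrimidines, the 5′ terminal oligopyrimidine motif through which mTOR signalling and the protein Larp1 set their translation. After an injury of the cord, microglia and macrophages, astrocytes and other cells grow and divide, which calls for new ribosomes, while neurons and oligodendrocytes are lost near the cut.

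The start of transcription is shown for members on which the results below turn, because the pyrimidine run sits exactly there. A RefSeq promoter entry (assembly GRCr8) was found for 41 of the 48 members. Each sequence gives 10 bases before the annotated start and 20 from it, in the direction of transcription, and capitals mark a C at the start with at least 4 pyrimidines (C or T) after it.
Rpl22 (chr5:168117951-168117980, plus strand): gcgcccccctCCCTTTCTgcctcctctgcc
Rps15 (chr7:10068096-10068125, minus strand): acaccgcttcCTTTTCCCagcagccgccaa
Rpl35a (chr11:81235002-81235031, minus strand): tcttgccttcCTCTTTCCgccatcttggcg
Rpl39 (chrX:121195877-121195906, minus strand): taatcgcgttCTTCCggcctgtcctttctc
Rpl37a (chr9:81748081-81748110, plus strand): cccgttgcgtCTCTTCCTCTTCgggcttgg
Rpl12 (chr3:36661930-36661959, plus strand): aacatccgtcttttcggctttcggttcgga
Rps6 (chr5:106420521-106420550, minus strand): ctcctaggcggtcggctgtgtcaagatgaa
Rps27l (chr8:76443648-76443677, plus strand): ttcatttgtcattatttgtggtgtccagag
Rpl3l (chr10:14258436-14258465, plus strand): ctggtgcctggtggggaggtcccttcctaa
Such a run stood at the annotated start of 11 of the 41 members (26.8%), against 722 of the 27456 promoters in the RefSeq table (2.63%). The 11 were Rpl14, Rpl19, Rpl22, Rpl28, Rpl34, Rpl35, Rpl35a, Rpl37a, Rpl39, Rps15 and Rps3a. The search read the sequence in the direction of transcription, at the annotated first base only. A run that begins a few bases away, as in Rpl12, was therefore not counted. A sequence without capitals says only that the run is not at that base.

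The values are the log2 signals deposited by the authors, and the arrays' medians ran from 7.10 to 7.25. Of the 48 members, 36 had a mean above 12, and these are called the high-level members below. The other 12 were Rpl26l1, Rpl28, Rpl30, Rpl37-ps2, Rpl39, Rpl39l1, Rpl3l, Rpl7l1, Rps13, Rps27l, Rps4x-ps1 and Rps4y2. A probe set's signal depends on its probes as well as on its transcript, so no order of genes is read from these levels. Each gene below was compared with itself between groups.

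Among the 3 uninjured arrays, replicate 1 stood lower for most members. The median of the 36 high-level members was 12.81 in replicate 1, 13.00 in replicate 2 and 13.00 in replicate 3, a mean of 12.94 ± 0.11 (SD, n = 3). The difference between the 3′ and 5′ beta-actin probe sets, a measure of RNA breakdown, was 1.72 ± 0.51 (SD, n = 3) in the uninjured cord, against means of 0.93 to 1.17 in the operated segments and arms other than the lesion ET arm (1.35). Since all comparisons with uninjured cord share these 3 arrays, their results are not independent of each other, and the values without replicate 1 are given beside them. The part of RNA breakdown in the results was not tested beyond the fit with the beta-actin difference as a covariate, given with the other settings in the closing section.

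**Figure D1:**
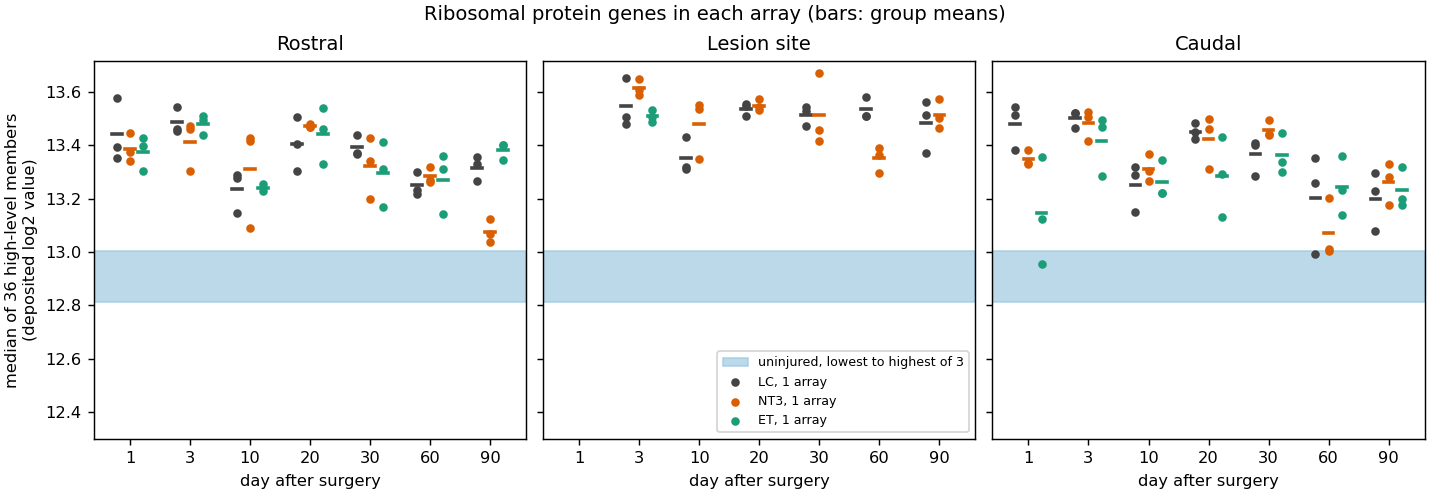
Median deposited log2 value of the 36 high-level ribosomal protein genes in each array (points) and its group mean (bars) against the day after surgery, for the rostral, lesion and caudal tissue of the LC, NT3 and ET arms; the band spans the 3 uninjured arrays, 12.81 to 13.00. The rostral and lesion arrays lie above the band in all 3 arms, and in the caudal tissue 1 LC array of day 60 and 1 ET array of day 1 fall inside it. A median of levels does not show each gene's own change. At caudal NT3 day 60 the high-level members ran from -0.30 (Rpl35) to 0.465 (Rpl12) against their uninjured means.

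In the tissue flanking the cut the members were higher than in uninjured cord within the first 3 days. Rostral to the gap, the median of the high-level members averaged 13.44 at day 1 and 13.49 at day 3 in the LC arm. In limma's fit with Benjamini-Hochberg adjustment over all tested genes, 41 of the 44 tested members rose and 1 fell at days 1 and 3 rostrally, where 67.7% of all tested genes were called (36% higher and 31.8% lower). The members' median difference was 0.51 on the log2 scale against 0.03 over all tested genes. Caudal to the gap 42 rose and 1 fell, with a median of 0.49 against 0.02, where 65% of all genes were called (34.3% higher and 30.7% lower). All 36 high-level members rose in both flanking segments. Without uninjured replicate 1 the members called numbered 30 rostrally, with a median of 0.37, and 34 caudally, with a median of 0.39. The share of all genes called in that setting is not given here, so these counts stand without it. In bulk tissue a change in the number of cells of a type and a change of RNA per cell cannot be told apart.

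Rps6, the small-subunit protein that the S6 kinases phosphorylate, gave 13.64, 13.71 and 13.79 in the 3 uninjured arrays. Its lowest, median and highest values were 13.89, 14.06 and 14.18 in the 21 rostral LC arrays, 13.98, 14.10 and 14.24 in the 18 lesion LC arrays and 13.86, 14.06 and 14.14 in the 21 caudal LC arrays. Every uninjured array was below every LC array, so the groups did not overlap. The rise was 0.41 at days 1 and 3 rostrally (SE 0.05, adjusted p = 6.9e-11 by limma), 0.43 at day 3 in the lesion (SE 0.05, adjusted p = 1.6e-08) and 0.25 at days 60 and 90 caudally (SE 0.05, adjusted p = 3.9e-05).

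Rpl5 and Rpl11, which with 5S rRNA form the particle that can bind Mdm2, also rose. Rpl5 gave 12.92, 12.93 and 13.07 in the uninjured arrays and 13.31, 13.44 and 13.57 as the lowest, median and highest of the rostral LC arrays, with no overlap in any segment of the LC arm. Rpl11 gave 12.89, 13.37 and 13.30 in the uninjured arrays and 13.40, 13.67 and 13.91 in the rostral LC arrays; in the caudal LC arrays, at 13.09, 13.64 and 13.89, it overlapped the uninjured cord. At days 1 and 3 rostrally Rpl5 rose by 0.47 (SE 0.05, adjusted p = 1.0e-10 by limma) and Rpl11 by 0.61 (SE 0.10, adjusted p = 8.5e-07). By days 60 and 90 caudally Rpl5 was still 0.41 higher (adjusted p = 1.8e-07), whereas Rpl11 differed by 0.16 (SE 0.11) and did not pass (adjusted p = 0.225).

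Rps27l, the Rps27 paralog known as a target of p53, had the largest rise of all members in the first days. It gave 8.97, 9.87 and 9.45 in the uninjured arrays, then 10.91, 10.82 and 10.94 in the rostral LC arrays of day 1 and 11.26, 10.75 and 10.83 in those of day 3. All of these lay above all uninjured arrays, although uninjured replicate 1 was well below the other 2. The difference was 1.49 at days 1 and 3 rostrally (SE 0.17, adjusted p = 2.0e-10 by limma) and 1.40 caudally (SE 0.21). Mdm2, a p53 target as well, rose by 0.93 rostrally in the same days, where 36% of all tested genes were higher. The part of p53 in these rises was not tested.

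Rpl22, a large-subunit protein that also binds RNA outside the ribosome, gave 11.24, 11.99 and 11.90 in the uninjured arrays. In the rostral LC arm it gave 12.50, 12.36 and 12.82 at day 1 and 13.06, 12.84 and 12.47 at day 3, again with no overlap. It rose by 0.96 (SE 0.19, adjusted p = 1.3e-05 by limma). Rpl18 followed with 0.89 (SE 0.12, adjusted p = 2.0e-08) and Rps28, a small-subunit protein near the mRNA exit, with 0.81 (SE 0.22, adjusted p = 0.00117). The smallest rises were those of Rpl26 (0.21), Rps29 (0.24) and Rps23 (0.25).

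The size of the rise went with the level of the probe set, given as a description. Across the 36 high-level members the difference correlated with the uninjured level at r = -0.71 rostrally and -0.72 caudally at days 1 and 3, over genes measured on the same arrays and with the uninjured value on both sides. The 12 members with the highest uninjured levels had a median difference of 0.37 rostrally, and the 12 with the lowest one of 0.57. Array signals flatten near the top of their range, and the part of that flattening in the members' order was not tested.

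**Figure D2:**
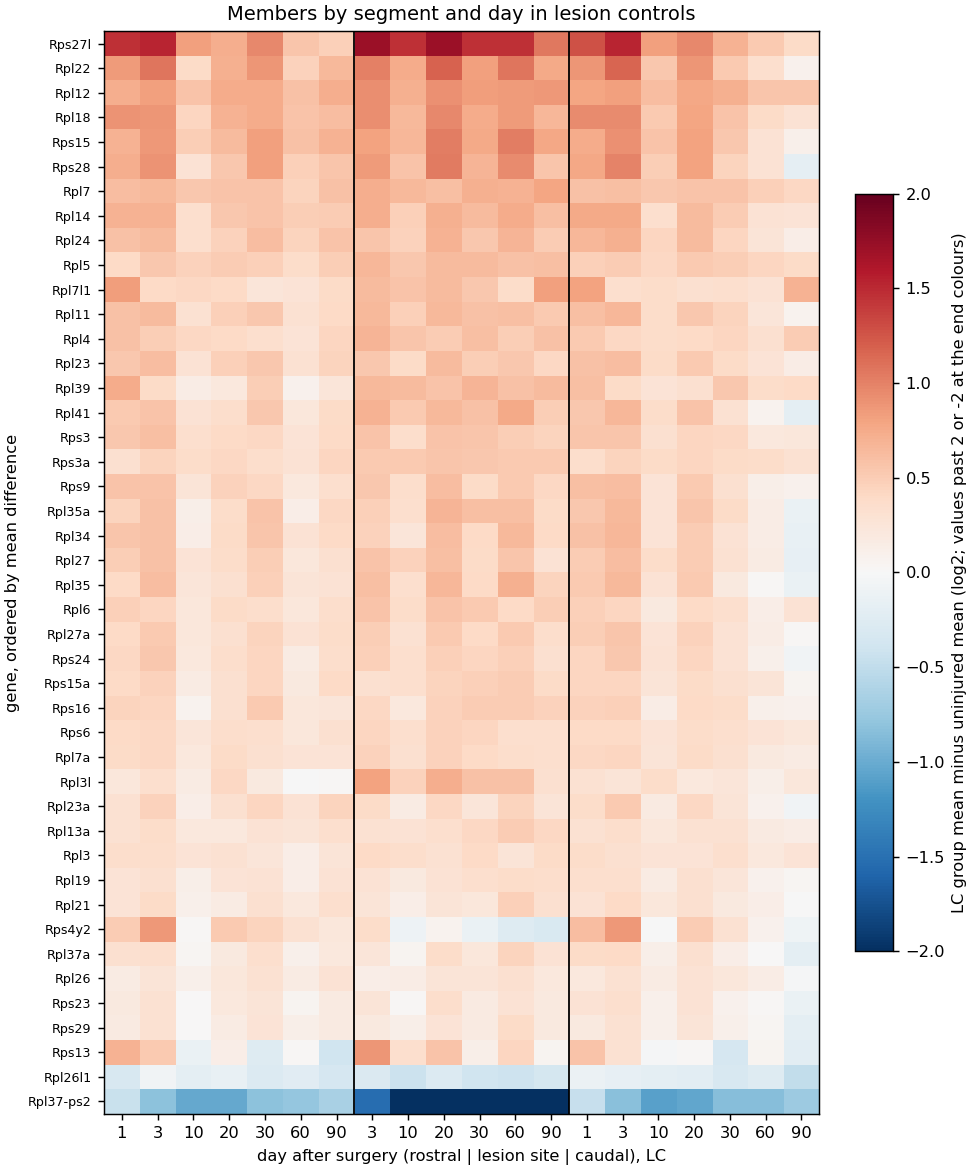
Difference between the LC group mean and the uninjured mean (log2, colour scale from -2 to 2) for the 44 tested members, 1 row each, ordered by their mean difference, against day and segment. Most rows are red throughout, with the deepest red in Rps27l, while the Rpl37-ps2 row is blue and reaches the end of the scale at the lesion site.

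Rpl37-ps2, Rpl26l1 and Rpl3l had patterns of their own. Rpl37-ps2, annotated as a pseudogene copy of Rpl37, was the member that fell in all 9 comparisons of the LC arm with uninjured cord. It gave 9.54, 10.11 and 10.01 in the uninjured arrays, 8.56, 8.11 and 8.42 in the lesion LC arrays of day 3, and 7.73, 7.13 and 7.18 in those of day 10. Its lesion values were all below the uninjured arrays. The fall was 1.53 at day 3 (a difference of -1.53, SE 0.16, by limma), 2.41 at days 10 to 30 (-2.41, SE 0.13, adjusted p = 5.2e-17) and 2.10 at days 60 and 90 (-2.10). Rostrally it fell by 0.63 at days 1 and 3 (SE 0.10, adjusted p = 1.3e-07) and by 0.95 at days 10 to 30. The files do not tell how far its probes also bind Rpl37 itself or an overlapping transcript.

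Over the 56 group means Rpl37-ps2 correlated with the mean of the high-level members at r = -0.41, against 0.98 for Rpl27a and 0.97 for Rpl22 and Rpl24, which are themselves among the genes averaged. Neuron markers moved with it: all 9 of 9 fell in every comparison of the LC arm with uninjured cord, and their mean level was 12.6 to 12.8 in the uninjured arrays, 11.0 to 12.1 rostrally, 11.3 to 12.2 caudally and 7.57 to 10.0 at the lesion site. The part of neuron loss in the fall of Rpl37-ps2 was not tested.

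Rpl26l1, a near copy of Rpl26, gave 7.15, 7.31 and 7.23 in the uninjured arrays and 6.64, 6.89 and 7.09 as the lowest, median and highest of the lesion LC arrays, all below the uninjured cord. It fell at the lesion site by 0.28 at day 3, 0.37 at days 10 to 30 and 0.38 at days 60 and 90, and did not pass at days 1 and 3 rostrally (-0.19). Rpl26 itself rose, by 0.21 at days 1 and 3 rostrally.

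Rpl3l, the muscle form of the large-subunit protein Rpl3, was near the bottom of the array's range and above the filter in 5 arrays. It gave 4.67, 4.72 and 4.70 in the uninjured arrays and 4.91, 5.17 and 6.37 as the lowest, median and highest of the lesion LC arrays. At days 1 and 3 rostrally it differed by 0.28 (SE 0.19) and did not pass the test (adjusted p = 0.192 by limma), whereas Rpl3 rose by 0.35 (SE 0.05, adjusted p = 3.5e-08). Rpl3l had to be high in the arrays that took it past the filter, so its differences are a description.

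Within the lesion the members stood high from day 3 to day 90. The median of the high-level members averaged 13.55, 13.35, 13.54, 13.51, 13.53 and 13.48 at days 3, 10, 20, 30, 60 and 90 in the LC arm. Called higher and lower were 36 and 2 members at day 3, where 40.8% of all genes were higher and 33.5% lower (74.3% in all). The counts were 36 and 2 at days 10 to 30 (41.9% and 37.1% of all genes, 79% in all) and 40 and 2 at days 60 and 90 (40.4% and 35%, 75.4% in all). The members' medians were 0.54, 0.47 and 0.47, against 0.08, 0.07 and 0.06 over all tested genes. Without uninjured replicate 1 the counts called were 29, 32 and 31, and the medians 0.40, 0.35 and 0.34. For these counts too, no share of all genes is given.

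Rps27l gave 11.17, 10.94 and 11.29 in the lesion LC arrays of day 3, 10.80, 10.98 and 10.87 at day 60 and 10.23, 10.68 and 10.56 at day 90, all above the uninjured arrays. It rose by 1.70 at day 3 (SE 0.17, adjusted p = 1.1e-10 by limma), 1.54 at days 10 to 30 and 1.26 at days 60 and 90 (SE 0.15, adjusted p = 3.1e-09). Rpl12, part of the stalk base to which elongation factors dock, gave 12.52, 12.98 and 12.92 in the uninjured arrays and 13.78, 13.61 and 13.81 at day 3 in the lesion. It rose by 0.93 at day 3 (SE 0.09, adjusted p = 3.0e-11) and by 0.86 at days 60 and 90 (adjusted p = 5.0e-12). Rpl22 was 0.91 and Rps15 0.90 higher at days 60 and 90.

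In the flanking tissue of the LC arm the members came back towards the uninjured level. Rostrally 35 rose and 1 fell at days 10 to 30 (60.5% of all genes called, 29.1% higher and 31.3% lower; median 0.34 against -0.01), and 29 rose and 2 fell at days 60 and 90 (53.6% of all genes, 24.9% higher and 28.7% lower, median 0.29 against -0.03). Caudally 34 rose and 2 fell at days 10 to 30 (61.7% of all genes, 29.2% higher and 32.5% lower, median 0.34 against -0.02), and 13 rose and 2 fell at days 60 and 90 (56.6% of all genes, 25.2% higher and 31.5% lower, median 0.15 against -0.04). Without uninjured replicate 1 the called members were 19 and 18 rostrally and 21 and 12 caudally, and the last caudal median was -0.03, on the other side of 0. The statement that the members were still raised caudally at days 60 and 90 therefore rests on that array for the list as a whole. With the beta-actin difference as a covariate, the same caudal median was 0.44 and 35 members were called. The shares of all genes called without uninjured replicate 1 or with the covariate are not given here.

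Single members differed in how far they came back. Rpl12 gave 13.44, 13.50 and 13.14 in the caudal LC arrays of day 60 and 13.27, 13.32 and 13.52 in those of day 90, all above the uninjured 12.52, 12.98 and 12.92. It was 0.56 higher (SE 0.09, adjusted p = 6.1e-07 by limma), followed by Rpl7l1 (0.50, SE 0.11), Rpl7 (0.45, SE 0.07) and Rpl4 (0.42, SE 0.05, adjusted p = 5.8e-09). Rpl7 and Rpl4 lie in the body of the large subunit, and Rpl7l1 is an Rpl7 paralog known to act in ribosome assembly.

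Rpl22 gave 11.64, 11.85 and 11.87 in the caudal LC arrays of day 90, inside the uninjured range, and Rps28 gave 11.80, 12.22 and 11.94, within its uninjured 11.42 to 12.70. Rps27l gave 9.47, 10.18 and 9.78 there, so that 2 arrays overlapped the uninjured ones, and its difference of 0.45 at days 60 and 90 did not pass (SE 0.21, adjusted p = 0.0673).

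Set directly against each other within the LC arm, days 60 and 90 were below days 1 and 3 for 37 of 44 members caudally and 20 of 44 rostrally, with 0 higher in either segment, where 58.2% of all genes were called caudally (22.7% higher and 35.5% lower) and 58.2% rostrally (25.6% higher and 32.6% lower). The median changes were -0.37 caudally and -0.18 rostrally, against -0.06 and -0.04 over all genes, and these comparisons use no uninjured array. The caudal fall was led by Rps27l (-0.95), Rps28 (-0.82, SE 0.18), Rpl22 (-0.82, SE 0.16) and Rps4y2 (-0.74), and the rostral one by Rps27l (-0.98, SE 0.14) and Rps13 (-0.80, SE 0.10). The Rps13 value is that of a probe set with a mean of 6.83. Against uninjured cord it was at 0.02 at rostral LC day 60 and -0.39 at day 90. A probe set naming Rps13 with copies (mean 13.07) was 0.55 above uninjured cord rostrally at days 1 and 3. At days 60 and 90 it was still 0.30 above. The difference between caudal and rostral change had a median of -0.20 over the members, but 0 members passed limma's test of that difference (3.85% of all genes did, and 22 members had an unadjusted p under 0.05). At the lesion site 5 members were lower at days 60 and 90 than at day 3 and 0 were higher (53.6% of all genes called, 23.6% higher and 30% lower, median -0.06).

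The persistence at the lesion site was tested against the flanking tissue within the LC arm. At day 3, 6 members were higher and 2 lower in the lesion than in the mean of rostral and caudal tissue (62.2% of all genes called, 32% higher and 30.1% lower, median -0.04). At days 10 to 30, 19 were higher and 3 lower (81.6% of all genes, 45.5% higher and 36.2% lower, median 0.10), and at days 60 and 90, 39 were higher and 2 lower (77% of all genes, 43.2% higher and 33.8% lower, median 0.25 against 0.07 over all genes). At days 60 and 90 the difference was 0.77 for Rps27l (SE 0.13), 0.52 for Rpl22, 0.50 for Rpl41, the short basic peptide of the large subunit, and 0.48 for Rps15. Rpl37-ps2 was 1.35 lower in the lesion (-1.35, SE 0.08) and Rps4y2 0.42 lower (-0.42).

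The change of this gap between day 3 and days 60 and 90 was a contrast added after the data were seen. It passed for 20 of 44 members, 19 of them upward, with a median of 0.28 against 0.03 over all genes, of which 40.1% were called (21.8% higher and 18.3% lower). Rpl22 gained 0.64 on the flanks (SE 0.24, adjusted p = 0.021 by limma), Rps27l 0.59 (SE 0.22, adjusted p = 0.0264), Rps15 0.57 and Rpl11 0.30 (SE 0.12, adjusted p = 0.0317). Rpl37-ps2 lost 0.65 (-0.65, SE 0.14, adjusted p = 9.1e-05).

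Beside these results stand the cell type markers of the same arrays. In the LC arm all 8 macrophage and microglia markers were higher than in uninjured cord in all 9 comparisons. Their mean level was 8.19 to 8.38 in the uninjured arrays, 9.96 to 11.2 rostrally, 9.98 to 11.7 in the lesion and 9.72 to 11.4 caudally. Proliferation markers averaged 5.83 to 5.91 in the uninjured arrays, 6.45 to 10.1 rostrally and 6.83 to 10.2 in the lesion. The part of these cells in the members' rise was not tested.

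**Figure D3:**
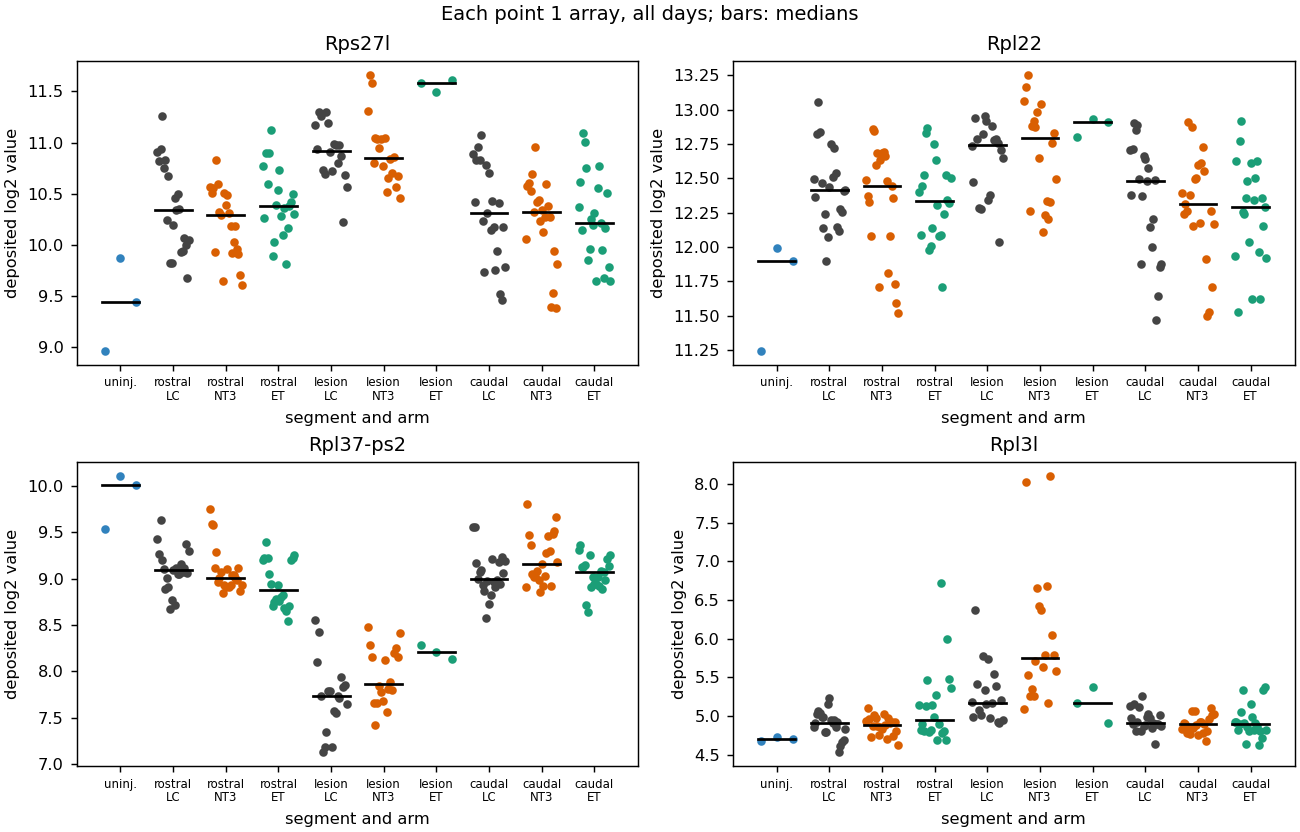
Deposited log2 value of Rps27l, Rpl22, Rpl37-ps2 and Rpl3l in every array (points) by segment and arm, over all days, with medians as bars. By their medians Rps27l and Rpl22 are lowest in the uninjured arrays and highest at the lesion site, and Rpl37-ps2 runs the other way. Rpl3l has a median of 5.75 in the lesion NT3 arrays, with single arrays up to 8.10, against 4.70 in uninjured cord. The rostral ET arrays reach 6.72.

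The NT3 tube was compared with the lesion control over all days of a segment. Rostrally 0 of 44 members passed limma's test (2.77% of all genes did, 1.15% higher and 1.61% lower, and 7 members had an unadjusted p under 0.05), with a median of -0.06. Caudally 1 passed (9.76% of all genes, 5.91% higher and 3.85% lower, 3 members unadjusted), with a median of -0.01, and it was Rpl37-ps2 (0.17 higher with NT3, SE 0.05, adjusted p = 0.0437). At the lesion site 3 were higher and 2 lower with NT3, against 41.9% of all genes called there (19% higher and 22.9% lower), with a median of 0.01 against -0.01. One of the 3 was Rpl3l, which passed the filter only through arrays in which it was high. With the replicate block 2 members were called at the lesion site, and 3 without the arrays that stood apart from their groups (lesion LC day 20 replicate 5, lesion NT3 day 3 replicate 1 and uninjured replicate 2). RT1-CE10 is a class I histocompatibility gene that varies between rat strains. On the days when it lay above 9 in all arrays of both arms or in none (days 10, 30 and 60 at the lesion site, days 10, 20, 30 and 60 caudally), 1 member was called at the lesion site and 0 caudally. Rostrally these days were 10, 20, 30 and 60, so rostral day 90 was not among them. Nor was day 20 at the lesion site.

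Rpl3l had the largest NT3 difference in size. Its lowest, median and highest values were 4.91, 5.17 and 6.37 in the 18 lesion LC arrays and 5.09, 5.75 and 8.10 in the 18 lesion NT3 arrays. The groups overlapped. The highest values were those of 1 array at day 3, whose NT3 arrays gave 5.09, 8.03 and 5.53, and 1 at day 60, whose NT3 arrays gave 6.67, 5.16 and 8.10. At day 20 the NT3 arrays gave 5.71, 6.65 and 6.42 and the LC arrays 5.78, 5.34 and 5.15. As a description, with no test because of the filter, the arms' means differed by 0.74. Skeletal muscle markers moved with it: 7 of 7 tested were higher with NT3 at the lesion site, and their mean level had a lowest, median and highest of 5.70, 6.92 and 9.55 in the LC arrays and 6.78, 8.95 and 10.9 in the NT3 arrays, against 6.14 to 6.22 in uninjured cord. Across the 39 lesion arrays, which share days and arms, Rpl3l correlated with that mean at r = 0.82, given as a description. The part of muscle tissue in the sample was not tested.

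The other 4 differences at the lesion site were small. Rpl37-ps2 was 0.22 higher with NT3 (SE 0.07, adjusted p = 0.0073), with 7.42, 7.86 and 8.48 as the lowest, median and highest NT3 arrays and 7.13, 7.73 and 8.56 for LC. Rps4y2 was 0.16 higher (SE 0.06, adjusted p = 0.0473), Rpl7l1 0.15 lower (-0.15, SE 0.06, adjusted p = 0.0299) and Rpl6 0.07 lower (-0.07, SE 0.02, adjusted p = 0.0323). Neuron markers were higher with NT3 at the lesion site in 9 of 9 (median 1.05), and their part in the difference of Rpl37-ps2 was not tested.

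The empty tube was compared with the lesion control in the same way. Rostrally 1 was lower and 0 higher (22.8% of all genes called, 7.9% higher and 14.9% lower), again Rpl37-ps2 (-0.16, SE 0.04, adjusted p = 0.00409 by limma), caudally 0 passed (3.5% of all genes, 6 members unadjusted) and at the lesion site on day 3 0 passed (23.2%, 3 unadjusted). NT3 against the empty tube gave 1 higher and 5 lower rostrally (30.2% of all genes called, 17.4% higher and 12.8% lower), Rpl37-ps2 at 0.16 and Rpl3l (-0.24, a description only), Rps13 (-0.19), Rpl39 (-0.14), Rpl6 (-0.08) and Rpl7 (-0.07), and 0 caudally (8.38%, 5 unadjusted). The comparisons with LC share the LC arrays, and those of NT3 share the NT3 arrays. Rostral and caudal LC tissue differed in 0 members (0.415% of all genes, 1 unadjusted), and the NT3 difference was not shown to differ between the 2 flanks in any member (0 passed, 0.0747% of all genes, 1 unadjusted).

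**Figure D4:**
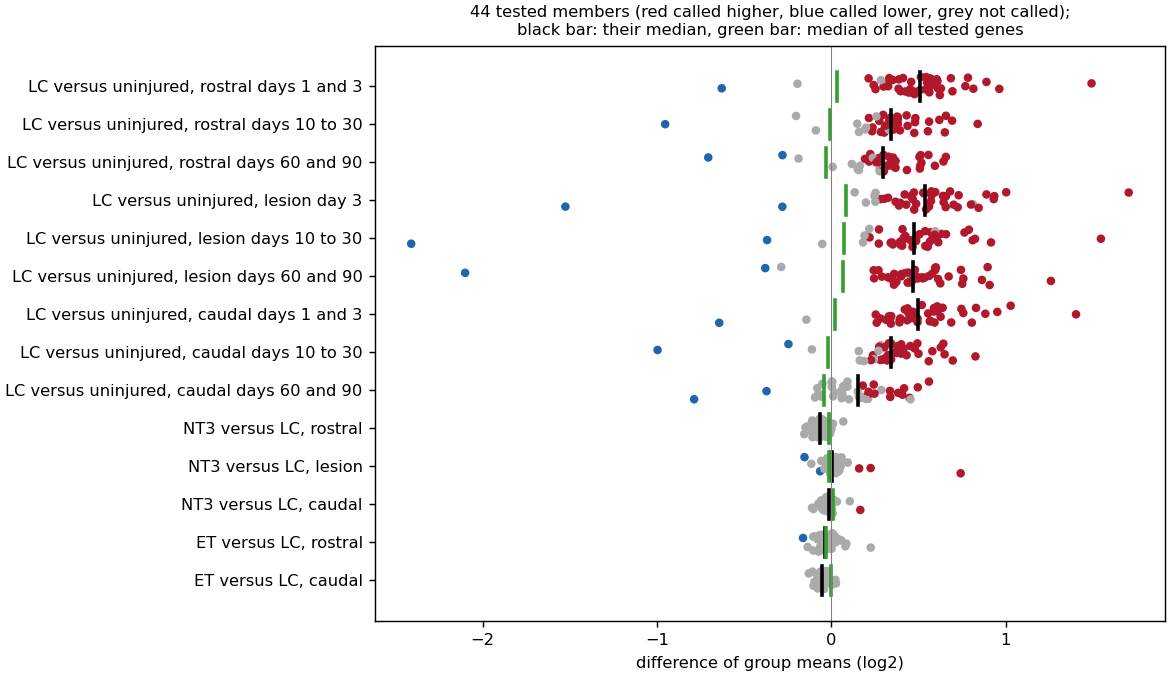
Difference of group means (log2) for each of the 44 tested members (points: red called higher, blue called lower, grey not called) in 14 comparisons, with the members' median as a black bar and the median of all tested genes as a green bar. The 9 comparisons with uninjured cord have the members' bar to the right of the green bar, at 0.15 to 0.54, and the 5 comparisons between arms have both bars near 0.

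An NT3 difference that changes sign from day to day is lost in a mean over days, so the days were also tested together with limma's moderated F-test. Rostrally 4 members passed (28.2% of all genes, 18 members unadjusted): Rpl39 (adjusted p = 0.00891), Rps24 (adjusted p = 0.0284), Rpl35a (adjusted p = 0.045) and Rpl12 (adjusted p = 0.0478). At the lesion site 4 passed (50.6% of all genes, 4 unadjusted): Rpl6 (adjusted p = 0.00764), Rps13 (adjusted p = 0.029), Rpl7l1 (adjusted p = 0.0335) and Rpl18 (adjusted p = 0.0458). Caudally 0 passed (7.18%, 5 unadjusted). These counts moved with single arrays, from 1 to 26 rostrally (26 without rostral NT3 day 10 replicate 3) and from 2 to 10 at the lesion site (10 without lesion NT3 day 30 replicate 1). With the replicate block 20 passed rostrally and 0 at the lesion site, so no lesion call was left. The shares of all genes passing in these changed settings are not given here.

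For the high-level members as a set, the rostral day on which the arms stood furthest apart was day 90. Rpl39, with the smallest rostral p in the F-test, differed most at day 1 (-0.44) and hardly at day 90 (-0.01). Rpl35a gave 12.71, 12.89 and 12.89 in the LC arrays and 12.31, 12.19 and 12.09 in the NT3 arrays, a difference of -0.63. Rpl12 gave 13.56, 13.55 and 13.48 with LC and 13.20, 13.22 and 13.17 with NT3 (-0.33), and Rpl22 gave 12.26, 12.40 and 12.41 with LC and 11.73, 11.59 and 11.52 with NT3. All 3 NT3 arrays lay below all 3 LC arrays in each of these genes, although Rpl22 did not pass the F-test over days (adjusted p = 0.0752). The same held for 36 of the 44 tested members, and 1 had all NT3 arrays above, against 20.0% of all tested genes below and 14.8% above. The day was chosen after the values were seen, and these shares have no test. On day 90 RT1-CE10 was above 9 in some but not all rostral arrays of these arms. The part of a strain difference in the day 90 values was not tested. The high-level members differed by a median of -0.35 on that day (range -0.74 to -0.07), while on the other days the rostral median ran from -0.14 at day 30 to 0.12 at day 20. On day 90 the 3 rostral NT3 arrays had member medians of 13.04 to 13.12, against 13.27 to 13.35 for LC, both above the medians of the uninjured arrays. Gene by gene, the high-level members of rostral NT3 day 90 lay on both sides of their uninjured means, from -0.29 for Rpl41 to 0.39 for Rpl12.

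Day values at the lesion site changed sign. Days 3, 20 and 90 were not among those on which RT1-CE10 was above 9 in all arrays of both arms or in none. Rpl6, an abundant large-subunit protein, gave 13.47, 13.44 and 13.51 in the LC arrays of day 20 and 13.26, 13.23 and 13.30 with NT3, without overlap (-0.21), but 0.08 at day 3 and 0.09 at day 10. Rpl7l1 ran from -0.42 at day 90 to 0.24 at day 30. Rpl18 ran from -0.43 at day 60 to 0.24 at day 3, and Rps13, which lies at the subunit interface, from -0.32 at days 3 and 60 to 0.14 at days 10 and 30.

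Other ribosomal genes were left out by the rule because their probe sets name several symbols, often a gene and its copies. There were 35 such ribosomal protein probe sets, 30 of them with a mean above 12, and the copies cannot be told apart. They followed the members. At days 1 and 3, 34 of 35 rose rostrally (median 0.57) and 35 of 35 caudally (median 0.67), against 36% and 34.3% of all genes. At days 60 and 90, 30 rose at the lesion site, 24 rostrally and 10 caudally, with 0 lower. Of all genes, 40.4%, 24.9% and 25.2% were higher there. These comparisons use the same 3 uninjured arrays, replicate 1 among them. In NT3 against LC 0 of 35 passed in any segment (2.77% of all genes did rostrally, 9.76% caudally and 41.9% at the lesion site). The probe set naming Rps27 rose by 0.75 at days 1 and 3 rostrally (SE 0.17, adjusted p = 2.0e-04 by limma), and its paralog Rps27l by 1.49. Those naming Rps4x and Rpl10 rose by 0.52 and 0.42 and that naming Rpl22l1, the Rpl22 paralog, by 0.35 (SE 0.11, adjusted p = 0.00497). At days 60 and 90 caudally Rps27 was at 0.22 (adjusted p = 0.319) and Rpl22l1 at -0.21 (adjusted p = 0.16), neither passing, and Rps4x at 0.44 (adjusted p = 1.9e-09).

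The wider machinery of translation was read from lists of genes outside the members. Of 39 tested genes for ribosome assembly and RNA polymerase I, 33 rose and 0 fell at days 1 and 3 rostrally (median 0.58), where 36% of all genes were higher and 31.8% lower. They were led by the nucleolar methyltransferase fibrillarin, Fbl (1.47), and the snoRNP proteins Gar1 (1.30) and Nhp2 (1.27). By days 60 and 90 rostrally 11 were higher and 6 lower (median 0.04), where 24.9% of all genes were higher and 28.7% lower. At the lesion site 21 were higher and 6 lower at these days (median 0.22, with 40.4% of all genes higher and 35% lower), with Nip7 at 0.77, Ddx21 at 0.75 and Dkc1 at 0.69. Within the LC arm, 35, 36 and 32 of the 39 were lower at days 60 and 90 than at the first days in the rostral, caudal and lesion tissue. Of all genes, 32.6%, 35.5% and 30% were lower in these comparisons.

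Initiation factors rose early too, with 27 of 34 higher and 2 lower at days 1 and 3 rostrally (median 0.47), led by the RNA helicase Eif4a1 (1.60). In that comparison 36% of all genes were higher and 31.8% lower. Of the 8 elongation factors 6 rose and 1 fell, and the one that fell was Eef1a2, the form of elongation factor 1 alpha that neurons and muscle use, at -1.18 rostrally (SE 0.17) and -3.00 at day 3 in the lesion. Rpsa and Rplp0, ribosomal protein genes with other symbol patterns, rose by 0.87 and 0.78. Among regulators at days 1 and 3 rostrally, Myc, the transcription factor that drives ribosome production, rose by 3.08 (SE 0.13), Eif4ebp1, the mTOR-controlled initiation repressor, rose by 2.12, and Mtor itself fell by 0.31. Larp1 was at -0.18 and did not pass (adjusted p = 0.106).

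For the proteins of the mitochondrial ribosome, 31 of 73 tested rose and 1 fell caudally at days 1 and 3 (median 0.28), where 34.3% of all genes were higher and 30.7% lower. At days 60 and 90 caudally 2 rose and 42 fell (median -0.34), where 25.2% of all genes were higher and 31.5% lower. In the lesion 9 rose and 15 fell at day 3 (median -0.10, with 40.8% of all genes higher and 33.5% lower), and 1 rose and 52 fell at days 60 and 90 (median -0.43, with 40.4% higher and 35% lower). Mrpl47 was lowest there, at -1.26.

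**Figure D5:**
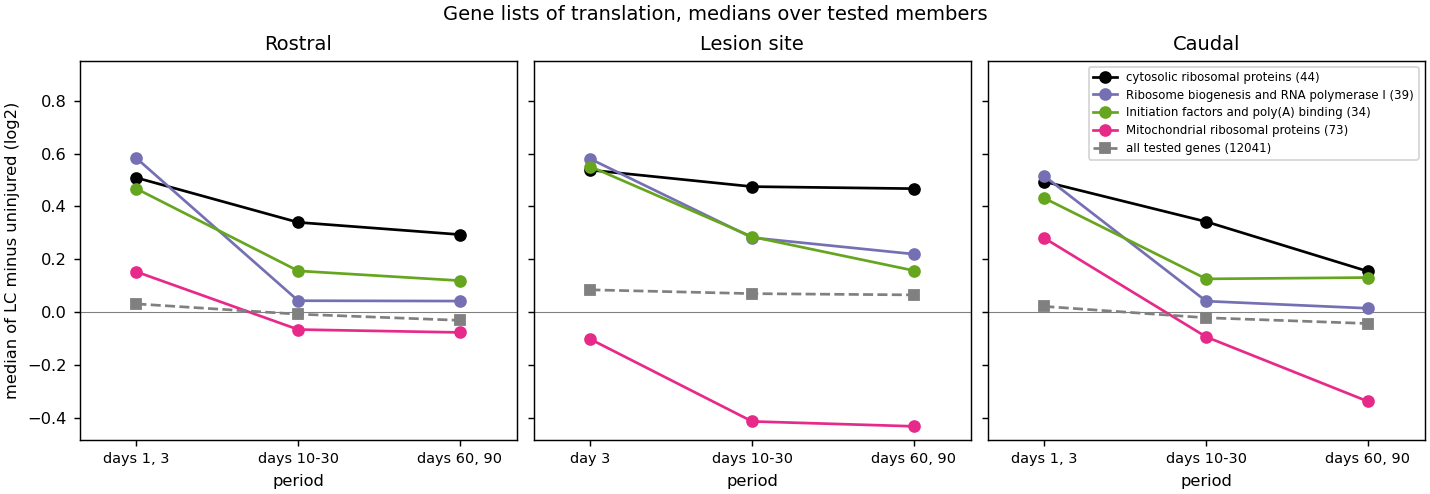
Median difference between the LC arm and uninjured cord (log2) for the 44 tested ribosomal protein genes, 3 other translation gene lists and all tested genes, by period and segment. All 3 cytosolic lists start between 0.43 and 0.58, the assembly list comes down to 0.01 to 0.22 by days 60 and 90, and the mitochondrial list ends at -0.43 at the lesion site.

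Over the 56 group means, the genes outside the members whose level followed the mean of the high-level members most closely were Snrpf (r = 0.947), Magoh (0.946), Fam174c (0.936), Snrpe (0.935) and Gtf2a2 (0.926). The groups share days and arms, and which of their arrays were normalised together is not given. These values therefore describe likeness over these 56 points only. Snrpf and Snrpe are core proteins of spliceosomal snRNPs and Magoh belongs to the exon junction complex.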

How the data were processed

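Total RNA of each tissue piece (1 array each) was labelled as biotin cRNA from 1 ug. The authors deposited log2 expression values; the submitters' processing notes name GCOS, Affymetrix Expression Console and RMA, without versions. Which arrays were normalised together is not given in the sources used here. RMA fits the arrays it normalises together to one distribution, so an overall change in RNA per cell is not seen in these values.

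Probe sets were named from the platform annotation (31099 probe sets, 20832 with 1 symbol, 436 with several, 9831 with none), and the highest-mean probe set stood for a gene. Genes above the 40th percentile of an array in at least 3 arrays were tested with limma 3.58.1 in R 4.3.3, in 1 fit per segment with the uninjured arrays, and in 1 fit of all arrays between segments, with a Benjamini-Hochberg adjusted p under 0.05 as the threshold. The procedure was tested on simulated data. Correlations of replicate arrays reached at most 0.998, so none was a duplicate. Depth does not apply to arrays, and their number limits the precision.

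The members and all lists were chosen with earlier results of these data known. Members named were the 4 largest and 4 smallest differences called in a comparison, the 5 highest, 5 lowest and 5 most variable members, paralog pairs, up to 3 called genes of each other list, and the 5 genes most like the members. Other members and values are named where a day or a neighbour is described. Alternatives changed the filter, scaling, probe set choice, fit, array weights, replicate block, covariate, days and arrays. Of the 48 genes, 46 IDs were found in RefSeq.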

Additional observations from a re-analysis of the deposited data

Results flagged for a closer look

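Some differences between segments or days passed a test of the difference itself. In the LC arm the change from day 3 to days 60 and 90 at the lesion site differed from that of the flanking tissue in 20 of 44 members, near the 40.1% of all genes called, among them Rpl22 (0.64), Rps27l (0.59), Rpl11 (0.30) and Rpl37-ps2 (-0.65). The NT3 minus LC difference at the lesion site differed from that in the flanks in 2 of 44 members, against 31.1% of all genes called: Rps4y2 (0.28) and Rpl3l (0.78). Rpl3l passed the filter on low values only through 5 arrays, so its value is a description. Both contrasts were added after the data were seen.

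By limma's F-test over days the NT3 difference passed for Rpl39 (adjusted p = 0.00891), Rps24 (adjusted p = 0.0284), Rpl35a (adjusted p = 0.045) and Rpl12 (adjusted p = 0.0478) rostrally, and for Rpl6 (adjusted p = 0.00764), Rps13 (adjusted p = 0.029), Rpl7l1 (adjusted p = 0.0335) and Rpl18 (adjusted p = 0.0458) at the lesion site. With the replicate block 0 members passed at the lesion site and 20 rostrally, and leaving out single arrays gave 1 to 26 rostrally and 2 to 10 at the lesion site. For Rps13 the single-symbol probe set has a low signal (mean 6.83), and a probe set naming it with copies (mean 13.07) stands among the 35 left out.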

How the results depend on the processing

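Over the alternatives, 256 of 301 counts of members called stayed within 1.5 times the value given and 287 of 296 medians moved by less than 1 SD between arrays. The counts of members in these alternatives have no share of all genes beside them. The members' medians against uninjured cord kept their sign in all 12 settings, apart from leaving out single arrays. With the beta-actin difference as a covariate the medians were 0.68, 0.54 and 0.48 rostrally and 0.76, 0.64 and 0.44 caudally at the early, middle and late days, with 35 members called at the late caudal days. With array weights the medians were 0.36 rostrally at days 1 and 3 and 0.40 at the lesion site on day 3; the estimation of the weights stopped before it converged.

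Leaving out each array in turn, the ranges were 30 to 42 called (median 0.37 to 0.56) rostrally at days 1 and 3, 19 to 37 at days 10 to 30 and 18 to 33 at days 60 and 90, and 21 to 39 caudally at days 10 to 30. The caudal median at days 60 and 90 ran from -0.028 to 0.209, and the lesion median on day 3 from 0.40 to 0.60. All these lows came from leaving out uninjured replicate 1. Late against early at the lesion site gave 3 to 6 (9 with quantile normalisation) and lesion against flanks on day 3 gave 4 to 9, both lows without lesion LC day 3 replicate 3.

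Counts between arms are small and moved with the setting. NT3 against LC gave 1 rostrally under quantile normalisation, array weights and the replicate block; caudally 0 under 75th percentile scaling and on days alike in RT1-CE10 (above 9 in all arrays of both arms or in none), 2 in 1 fit of all arrays, 4 with weights and 0 to 2 leaving out arrays; at the lesion site 2 with the replicate block, 3 without the 3 arrays that stood apart, 1 on days alike in RT1-CE10 and 3 to 5 leaving out arrays. ET against LC gave rostrally 2 under quantile normalisation, the mean of probe sets, weights and the replicate block, 3 under 75th percentile scaling, 0 on days alike and 1 to 3 leaving out arrays; caudally 1 under 75th percentile scaling, 2 in 1 fit, 6 with weights, 7 on days alike and 0 to 2 leaving out arrays; at the lesion site 1 without a filter, 2 under quantile normalisation, 4 under 75th percentile scaling (median 0.12), 2 in 1 fit, 4 with weights, 1 without the 3 arrays and 0 to 1 leaving out arrays. NT3 against ET gave rostrally 10 under 75th percentile scaling and with weights and 3 on days alike, and caudally 1 under the stricter filter, 2 in 1 fit, 4 with weights, 1 with the replicate block, 1 without the 3 arrays and 0 to 3 leaving out arrays. The F-test over days gave rostrally 1 under 75th percentile scaling, 40 with weights, 20 with the replicate block and 1 to 26 leaving out arrays; caudally 1 in 1 fit, 37 with weights and 0 to 1 leaving out arrays; at the lesion site 2 under quantile normalisation and 75th percentile scaling, 34 with weights, 0 with the replicate block and 2 to 10 leaving out arrays. The cause of these moves was not tested.

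Pairing by replicate number was read from the deviations of same-numbered arrays. Between arms these correlated at a median of 0.02 over 147 pairs (-0.45 to 0.58), 54 of them over 0.1. Between segments the median was 0.06 over 138 pairs (-0.46 to 0.52), 64 of them over 0.1. These values cannot tell whether pieces of different segments came from the same rats. Apart from the replicate block, the tests between segments took the arrays as independent. The replicate block moved no other count by over 1.5 times. Adding the several-symbol probe sets, an alternative chosen after the data were seen, gave 0.54 rostrally and 0.56 caudally at days 1 and 3 and 0.50 at the lesion site at days 60 and 90.

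The limits are these. There are 3 uninjured arrays for all comparisons, of unstated segment level, with 1 array low in most members. For 36 of the 48 members the probe set's mean is above 12, near the top of the array's range, and the part of signal flattening there was not tested. Ribosomal protein genes have many copies in the genome. The values are relative to the distribution to which RMA fitted the arrays.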

Other observations

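Day 20 was also set against day 10, in contrasts added after the data were seen. At the lesion site in the LC arm 3 members rose, Rps23 by 0.32 and Rpl6 and Rps3 by 0.22 each (24.3% of all genes called; members' median 0.21 against 0.10 over all genes, 14 members with an unadjusted p under 0.05), and caudally in the ET arm 2 rose, Rpl7l1 by 0.42 and Rpl4 by 0.23 (7.22%; members' median -0.05). In the other 6 combinations of segment and arm, 0 members passed limma's test, with medians of 0.05 to 0.18 and 0 to 7 members with an unadjusted p under 0.05. The share of all genes called in them was 5.01% for rostral LC, 2.23% for rostral NT3, 0.274% for rostral ET, 1.35% for caudal LC, 1.26% for caudal NT3 and 14.5% for lesion NT3.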
